A study of Mus musculus with 29 samples.

Results

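Collagen genes and the genes that process collagen were followed through adipocyte differentiation of 3T3-L1 cells, a mouse preadipocyte line that forms fat cells in culture, after the KDM5 histone demethylases had been inhibited in preadipocytes. The set held every gene of the count table whose symbol names a collagen chain (Col, type number, chain number), and those of 17 named processing genes that were present. Of 44 collagen genes that the annotation names, 24 were in the table. Of the 17 processing genes 15 were (P3h2 and P4ha3 were not), so that the set had 39 of the table's 11959 genes. The collagens comprised 9 fibrillar chains, 3 basement membrane network chains (type IV), 3 beaded filament chains (type VI), 4 FACIT chains (fibril-associated collagens with interrupted triple helices), 2 multiplexins, 1 anchoring fibril chain, 1 transmembrane chain and Col28a1. No short-chain network collagen (types VIII and X) was in the table. The processing genes coded for 2 prolyl 4-hydroxylase subunits, 2 prolyl 3-hydroxylases, 3 lysyl hydroxylases, 5 lysyl oxidases, the chaperone Serpinh1 and 2 procollagen C-proteinase enhancers.

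Confluent 3T3-L1 cells received 10 µM KDM5-C70 (C70, a small-molecule inhibitor of KDM5 enzymes) or DMSO vehicle from day -2 to day 0. Differentiation medium was then given until day 2 and adipocyte medium afterwards, so that cells harvested after day 0 had been without C70 since that day. RNA was sequenced at days 0, 1, 2 and 7, with 3 vehicle and 4 C70 samples at days 0, 1 and 2 and with 4 of each at day 7, 29 samples in all. All samples came from 1 immortalized line, and the sources used here do not say whether replicates were separate cultures, so that P values measure the spread between these samples, which may be technical.

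Collagen chains are made in the endoplasmic reticulum, where prolyl and lysyl residues are hydroxylated before the chains wind into a triple helix held by HSP47, the product of Serpinh1. After secretion the propeptides of fibrillar collagens are trimmed, a step that Pcolce proteins enhance, and lysyl oxidases then cross-link the fibers. Preadipocytes lay down a fibroblast-like matrix rich in types I and III collagen. Maturing adipocytes surround themselves with a basement membrane, in which type IV collagen forms the network, and with type VI collagen filaments beside it.

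The 250 bases before the RefSeq transcription start (GRCm38.p6) are shown for 4 members that the results turn on, so that their base composition can be read beside the expression values. They are Col3a1, an abundant fibrillar chain (chr1:45311288-45311537, plus strand), and Serpinh1, the chaperone (chr7:99353240-99353489, minus strand). Next come Col23a1, the member with the largest C70 response (chr11:51289670-51289919, plus strand), and Col7a1, which was higher with C70 at day 0 and lower at days 2 and 7 (chr9:108953336-108953585, plus strand). These stretches lie outside the exons of GENCODE M21. Capitals mark the CCAAT box, the TATAAA box and the GGGCGG box, each on either strand.
Col3a1: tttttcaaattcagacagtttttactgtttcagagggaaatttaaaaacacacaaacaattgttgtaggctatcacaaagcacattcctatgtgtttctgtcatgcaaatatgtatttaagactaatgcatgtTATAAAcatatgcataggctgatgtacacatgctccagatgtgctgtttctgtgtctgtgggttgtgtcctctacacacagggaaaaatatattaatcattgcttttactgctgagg
Serpinh1: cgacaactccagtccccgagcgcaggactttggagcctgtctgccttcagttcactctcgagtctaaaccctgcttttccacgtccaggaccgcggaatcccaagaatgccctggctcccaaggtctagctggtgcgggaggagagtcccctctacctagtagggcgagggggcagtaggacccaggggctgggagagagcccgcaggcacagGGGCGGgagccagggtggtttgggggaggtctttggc
Col23a1: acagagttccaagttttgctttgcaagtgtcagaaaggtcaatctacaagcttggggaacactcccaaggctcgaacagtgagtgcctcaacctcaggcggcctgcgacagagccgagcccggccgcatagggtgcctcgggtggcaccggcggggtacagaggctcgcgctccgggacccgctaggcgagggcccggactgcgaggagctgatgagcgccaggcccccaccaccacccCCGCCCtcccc
Col7a1: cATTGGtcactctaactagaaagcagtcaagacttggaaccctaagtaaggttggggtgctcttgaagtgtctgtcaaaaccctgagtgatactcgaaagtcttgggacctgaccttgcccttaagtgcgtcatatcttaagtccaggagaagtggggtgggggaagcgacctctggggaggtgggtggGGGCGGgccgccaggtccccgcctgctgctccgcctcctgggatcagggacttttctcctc
The Col3a1 stretch held the only TATAAA among these 4, and the other 3 each held a GGGCGG box. In windows of 300 bases that also take in 50 bases after the start, 30 member genes had 33 windows in the RefSeq table. The GGGCGG box was in 72.7% of these and in 35.7% of all 32851 windows. The CCAAT box was in 36.4% of member windows and 37.4% of all, and the TATAAA box in 12.1% and 13.6%. The median ratio of observed to expected CG dinucleotides was 0.559 in member windows and 0.384 in all. All windows were not limited to genes of the count table, as the members are, and windows of the table's genes alone were not counted. Whether the differences are particular to the members was thus not tested. Some member windows overlap (Col4a1 with Col4a2, and those of Col6a2 with each other). A match describes the letters and does not show that a factor binds there.

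Libraries held between 16320275 and 24037170 counts, and TMM normalization factors ran from 0.898 to 1.08. Values in CPM are counts scaled to the TMM-adjusted library size. A differentially expressed gene (DEG) had an edgeR adjusted P under 0.05 over all 11959 genes and a log2 fold change beyond 0.32 in either direction. The labels call the cells adipocytes on every day, whereas the summed CPM of 10 adipocyte markers (of 11 listed) was 1389 to 1518 in day 0 vehicle samples and 25746 to 30328 in those of day 7. With C70 this sum was higher at day 0 (1607 to 1660.4), lower at day 1 (3747 to 3844, against 5558 to 5853 in vehicle), lower at day 2 (12595 to 13777, against 21204 to 21989 in vehicle) and overlapped that of vehicle at day 7 (28068 to 30923). Most of the day 0 sum was Lpl (means of 1237 CPM in vehicle and 1399 CPM with C70). Plin4 and Cebpa were also higher with C70 then, whereas Pparg (53.4 and 37.7 CPM) and Fabp4 (50.6 and 38.0 CPM) were lower. At day 7 every C70 sample was above every vehicle sample for Adipoq, Cd36, Lpl and Plin1, and the other listed adipocyte markers overlapped. All 6 listed preadipocyte and fibroblast markers were in the table. Their sum was higher with C70 on each day, at 1069 to 1153 CPM against 702 to 730 CPM at day 2 and at 803 to 943 CPM against 376 to 513 CPM at day 7. Most of the day 0 sum was Dlk1 (means of 2572 CPM in vehicle and 2913 CPM with C70). At day 0 Dlk1, Thy1, Ly6a and S100a4 were higher in every C70 sample, whereas Pdgfra and Pdgfrb overlapped. Pdgfra also overlapped at day 1. Of 4 smooth muscle and myofibroblast markers, Acta2 and Tagln were present, and their sum was higher with C70 at day 0 (658 to 731 CPM, against 507 to 616 CPM in vehicle), day 1 (11.8 to 13.3 CPM, against 4.74 to 6.84 CPM) and day 2 (4.67 to 8.06 CPM, against 2.00 to 2.07 CPM). At day 7 it was 10.3 to 14.4 CPM with C70, 17.7 CPM in vehicle replicate 1 and 6.65 to 8.38 CPM in the other vehicle samples. Cd68, the only one of 4 macrophage markers present, was at 1.13 to 1.67 CPM in vehicle and 18.7 to 19.8 CPM in C70 samples at day 0. It was also apart at day 1 (1.74 to 2.01 CPM in vehicle, 13.6 to 15.1 CPM with C70) and day 2 (1.33 to 1.75 CPM in vehicle, 6.35 to 6.94 CPM with C70), and overlapped at day 7. Of 7 bone and cartilage markers Runx2 and Sox9 were present, with a sum of 60.7 to 65.4 CPM in vehicle and 93.1 to 105 CPM in C70 samples at day 2, and of 38.4 to 45.6 CPM and 50.6 to 54.2 CPM at day 7. The 4 endothelial markers were not in the table. The part of these markers in the collagen results was not tested, and in bulk RNA fewer cells of a type and less RNA per cell cannot be told apart.

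Vehicle samples were first compared between days, to show how collagen expression ran through differentiation without the inhibitor. Between day 0 and day 7, 30 of 39 members fell and 6 rose (36.7% of all genes fell and 36.7% rose), with a median log2 fold change of -0.94 against 0.01 over all genes. From day 0 to day 1, 18 fell and 12 rose (27.9% of all genes fell, 26.2% rose). From day 1 to day 2, 25 fell and 4 rose (22% and 22.3%), and from day 2 to day 7, 19 fell and 9 rose (26.7% and 26.6%). By group means, the vehicle level was highest at day 0 for 23 members. Day 1 held the peak of 6, day 2 that of 5 and day 7 that of 5. Peak days were not counted over all genes, so these counts only describe the members.

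**Figure D1:**
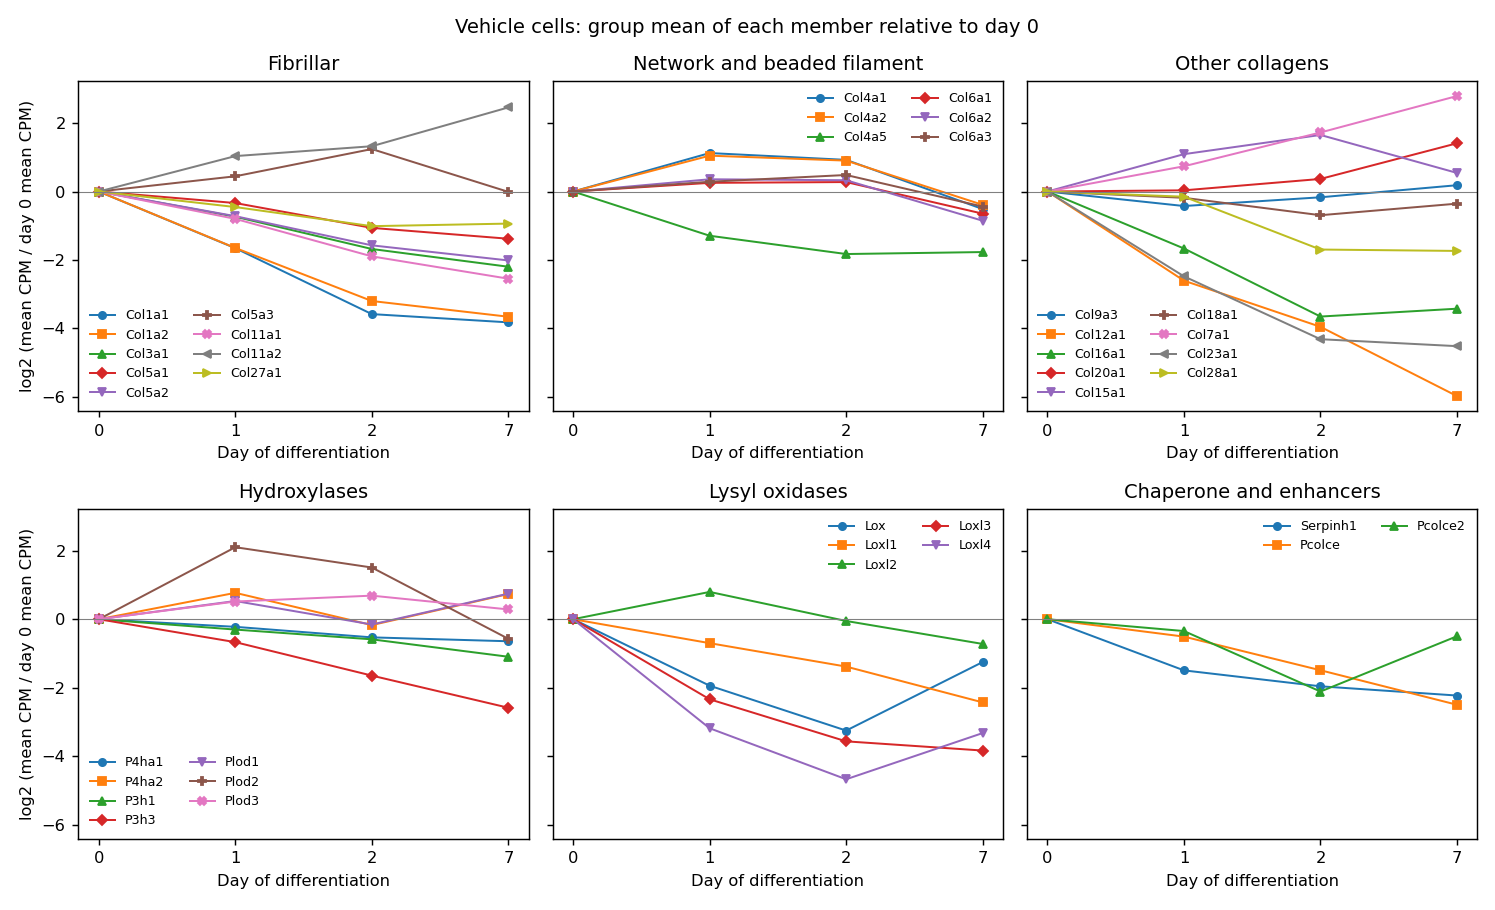
Log2 ratio of each member's mean CPM in vehicle samples to its day 0 mean, by day of differentiation (days evenly spaced on the x axis), in 6 panels of collagen classes and enzyme families; each line is 1 gene and each point the mean of 3 samples (4 at day 7). Most fibrillar chains lie below 0 from day 1 on, while Col4a1 and Col4a2 are above 0 at days 1 and 2 and below it at day 7.

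The fibrillar chains fell early and far. From day 0 to day 7, 7 of 9 fell and Col11a2, a minor fibrillar chain, rose (36.7% of all genes fell and 36.7% rose). Col5a3 stood at a log2 fold change of -0.01. Col1a2, which with Col1a1 makes type I collagen, had the highest level per transcript length in day 0 vehicle samples, at 3253 CPM per kb, ahead of Col1a1 at 1804 and Col3a1 at 1082. Col1a2 was at 17374, 17507 and 17314 CPM in the day 0 vehicle samples and at 1593, 1160.4, 1239 and 1519 CPM in those of day 7. This was a fall at every step (log2 fold change -3.66 ± 0.08 SE, edgeR adjusted P = 7.94e-27 for day 7 versus day 0). Col1a1 went from 10696 ± 359 CPM (SD, n = 3) at day 0 to 893 ± 35.9 CPM (SD, n = 3) at day 2. Its further change to 756 ± 139 CPM (SD, n = 4) at day 7 was under the fold limit (log2 fold change -0.24).

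The steepest fall of any member was that of Col12a1, a FACIT chain that coats fibrils. It dropped from 1882, 1772 and 1977 CPM at day 0 to 28.6, 28.5, 31.6 and 30.6 CPM at day 7 (log2 fold change -5.98 ± 0.09 SE, edgeR adjusted P = 1.05e-30). Col23a1, a membrane-spanning collagen, came next, with 22.4, 23.6 and 24.1 CPM at day 0 and 1.40, 0.620, 1.08 and 0.987 CPM at day 7. Among the enzymes the lysyl oxidase Loxl3 fell most, by 3.84 on the log2 scale.

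Basement membrane and beaded filament chains ran another course. Col4a1 and Col4a2, the common type IV chains, lie head to head on chromosome 8 and overlap by 22 bases. Both rose from day 0 to day 1 and fell from day 2 to day 7. Col4a1 was at 3747, 3949 and 3792 CPM in day 0 vehicle samples, 8289, 8481 and 8266 CPM at day 1 and 2653, 2694, 2632 and 2766 CPM at day 7. The rise at day 1 exceeded the replicate spread (log2 fold change 1.12 ± 0.05 SE, edgeR adjusted P = 7.2e-18), whereas Col4a5, the other type IV chain in the table, fell by 1.29 on the log2 scale. Per length, Col4a1 at 1099 CPM per kb led all members in day 2 vehicle samples, where Col1a2 was at 354. Of the type VI chains Col6a1, Col6a2 and Col6a3, only Col6a2 was called before day 2 (log2 fold change 0.36 at day 1), and all 3 fell from day 2 to day 7. Col6a3 stood at 6494, 6663 and 6199 CPM at day 2 and 2739, 3756, 3637 and 3492 CPM at day 7.

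Other members ran against the general fall. Col7a1, the chain of anchoring fibrils, rose at every step, from 5.20, 4.62 and 5.29 CPM at day 0 to 34.3, 36.8, 35.5 and 32.8 CPM at day 7 (log2 fold change 2.78 ± 0.09 SE, edgeR adjusted P = 2e-22). Col11a2 rose by 2.45 and Col20a1, a FACIT chain, by 1.41 on the log2 scale over these days. Col15a1, Plod1 and P4ha2 also rose. Lox, the main lysyl oxidase, was at 1824, 1752 and 1970.3 CPM at day 0, 191, 192 and 199 CPM at day 2 and 710.4, 791, 749 and 855 CPM at day 7, so that its lowest level was at day 2. Plod2, which hydroxylates telopeptide lysines, rose by 2.10 at day 1 and fell by 2.08 from day 2 to day 7 on the log2 scale. The fall of Pcolce2 from day 0 to day 7 (log2 fold change -0.53) was no longer called without vehicle replicate 1 or 3 of day 0 (-0.37 and -0.53), without vehicle replicate 3 or 4 of day 7 (-0.44 and -0.40) or under quantile normalization (-0.13).

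C70 and vehicle samples were then compared on each day, which asks how a transient inhibition in preadipocytes was followed in collagen expression. At day 0, 10 members were higher and 0 lower with C70 (5.89% of all genes higher, 3.09% lower), with a median log2 fold change of 0.10. DESeq2, voom and quantile normalization likewise called 0 lower members. At an unadjusted P under 0.05, 2 members were lower by edgeR (Plod3 and Col27a1, named after their values were seen), 2 by DESeq2, 2 by voom and 6 under quantile normalization. On day 1, 13 members were higher and 3 lower (13.6% of all genes higher, 7.8% lower, member median 0.19). Under quantile normalization 9 were higher and 4 lower at day 1, and 11 of the 16 calls were kept. Those lost there were Col1a1, Col28a1, Col4a2, Col6a1 and Col6a2, and Col12a1 and Plod3 were lower there (log2 fold changes -0.34 and -0.32). Day 2 had 21 higher and 2 lower members (16.9% and 13.6% of all genes, member median 0.40). Day 7, when C70 had been absent for the whole of differentiation, had 24 higher and 2 lower members (14.3% and 4.85% of all genes, member median 0.53). The median over all genes was between -0.01 and 0.00 on these days. Col15a1, Col16a1, Col23a1, Col28a1, Col4a2 and Loxl4 were higher on all 4 days (6 members, against 246 or 2.06% of all genes). Under quantile normalization Col28a1 and Col4a2 lost their call of day 1 and Loxl4 that of day 7. Col9a3, P4ha1 and P4ha2 were called on no day (3 members, against 6640 or 55.5% of all genes).

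**Figure D2:**
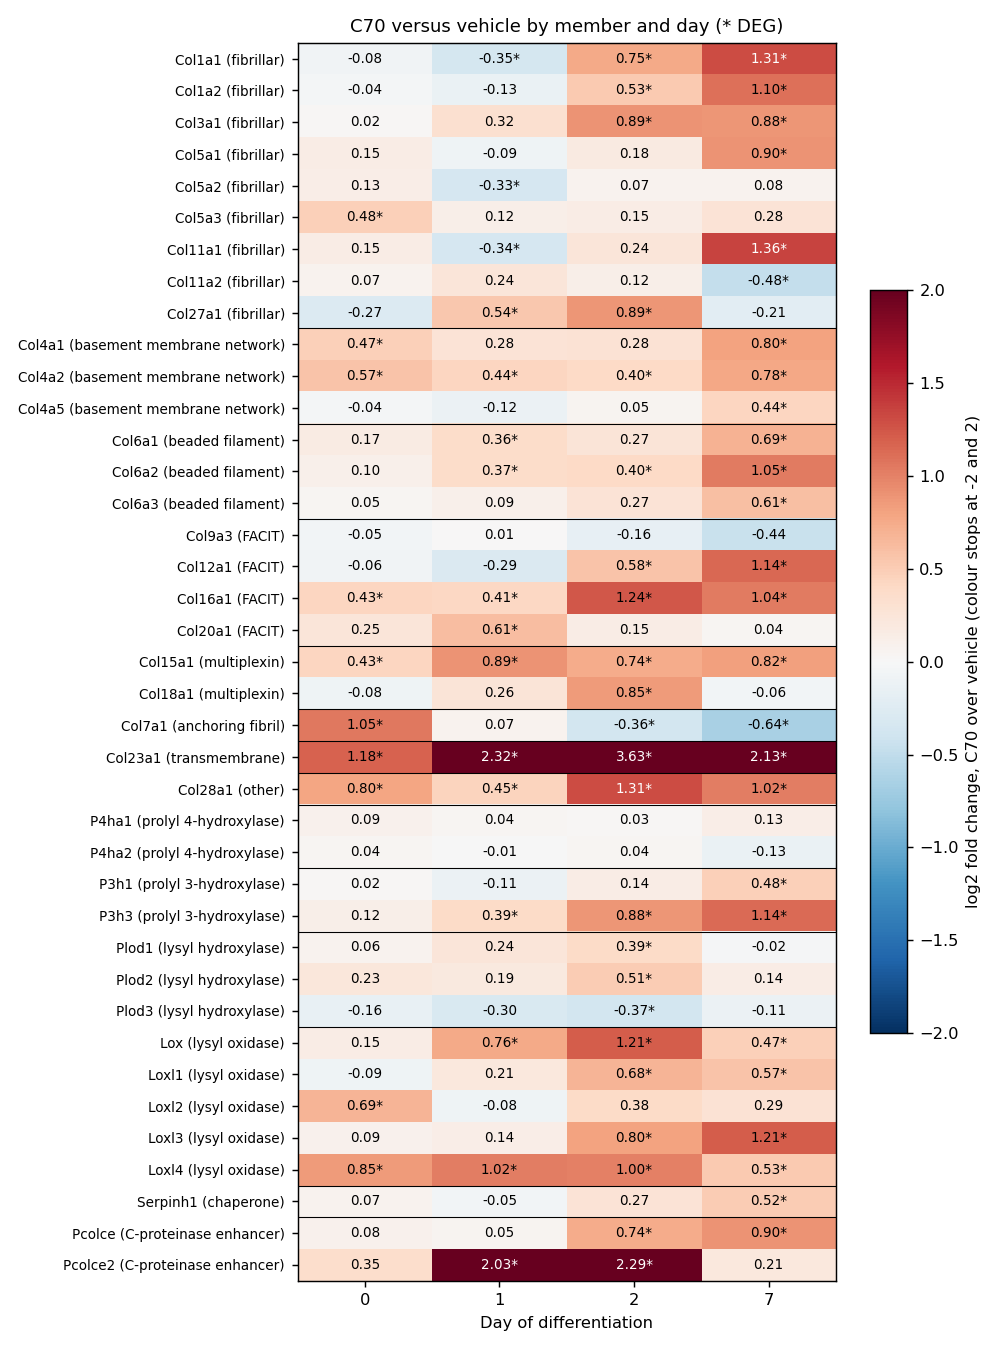
Log2 fold change of C70 over vehicle for the 39 members (rows, grouped by class) at days 0, 1, 2 and 7 (columns); an asterisk marks a DEG, and the color scale ends at -2 and 2. Higher calls grow from 10 members at day 0 to 24 at day 7 (5.89% and 14.3% of all genes). Col7a1 passes from higher at day 0 to lower at days 2 and 7.

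Fibrillar collagens were higher with C70 mainly at the later days. Col5a3 was the only one higher at day 0 (log2 fold change 0.48). At day 1 Col27a1 was higher, and Col1a1, Col5a2 and Col11a1 were lower. Col3a1 was then just under the fold limit (log2 fold change 0.320), although its groups did not overlap (3314 to 3822 CPM in vehicle, 4352 to 4702 CPM with C70). It was called as higher at day 1 by voom, with a replicate block, in a fit of that day alone and without genes of low count. At day 2, 4 of 9 were higher (Col1a1, Col1a2, Col3a1 and Col27a1), against 16.9% of all genes. At day 7, 5 were higher (Col1a1, Col1a2, Col3a1, Col5a1 and Col11a1) and Col11a2 was lower (14.3% and 4.85% of all genes). Col1a1 was at 913, 915 and 852 CPM in vehicle and 1556, 1414, 1556 and 1501 CPM in C70 samples at day 2. No vehicle sample reached the C70 samples (log2 fold change 0.75 ± 0.09 SE, edgeR adjusted P = 1.87e-08). For day 7 the values were 935, 615, 685 and 788 CPM in vehicle and 1872, 1742, 1864 and 2021 CPM in C70 samples, so that Col1a1 was again apart, and the C70 samples were also above all vehicle samples of day 2 (log2 fold change 1.31 ± 0.08 SE, edgeR adjusted P = 9.59e-14). Col1a2 was at 1593, 1160.4, 1239 and 1519 CPM in vehicle and 2980.4, 2620.1, 2913 and 3291 CPM in C70 samples at day 7. Its groups were as clearly apart (log2 fold change 1.099 ± 0.07 SE, edgeR adjusted P = 5.07e-13). Col3a1, which forms fibrils with type I collagen, was at 1880.2 ± 14.8 CPM (SD, n = 3) in vehicle and 3495 ± 82.6 CPM (SD, n = 4) in C70 samples at day 2. Its log2 fold change was 0.89 then and 0.88 at day 7.

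Minor fibrillar chains, which help set fibril diameter, did not move together. Col11a1 was at 19.6, 16.7, 14.9 and 20.7 CPM in vehicle and 44.6, 38.9, 51.5 and 49.1 CPM in C70 samples at day 7. All C70 samples were higher (log2 fold change 1.36 ± 0.08 SE, edgeR adjusted P = 1.95e-14). Col5a1 was also higher at day 7 (log2 fold change 0.90), whereas Col5a2, its partner in type V collagen, had a log2 fold change of 0.08 with an edgeR adjusted P of 0.176. Col11a2 was lower at day 7 by 0.48 on the log2 scale. Col27a1 was higher at days 1 and 2 (0.54 and 0.89) and stood at -0.21, uncalled, at day 7. The 3 lower calls of day 1 lay close to the fold limit, with log2 fold changes of -0.35 for Col1a1, -0.34 for Col11a1 and -0.33 for Col5a2. Each fell under the limit without C70 replicate 1 of day 1 (-0.30, -0.32 and -0.30). The same held for Col1a1 under quantile normalization (-0.29) and without vehicle replicate 3 (-0.32), for Col11a1 without vehicle replicate 2 (-0.32) and for Col5a2 without genes of low count (-0.31) and without vehicle replicate 2 or 3 (-0.31 and -0.29).

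**Figure D3:**
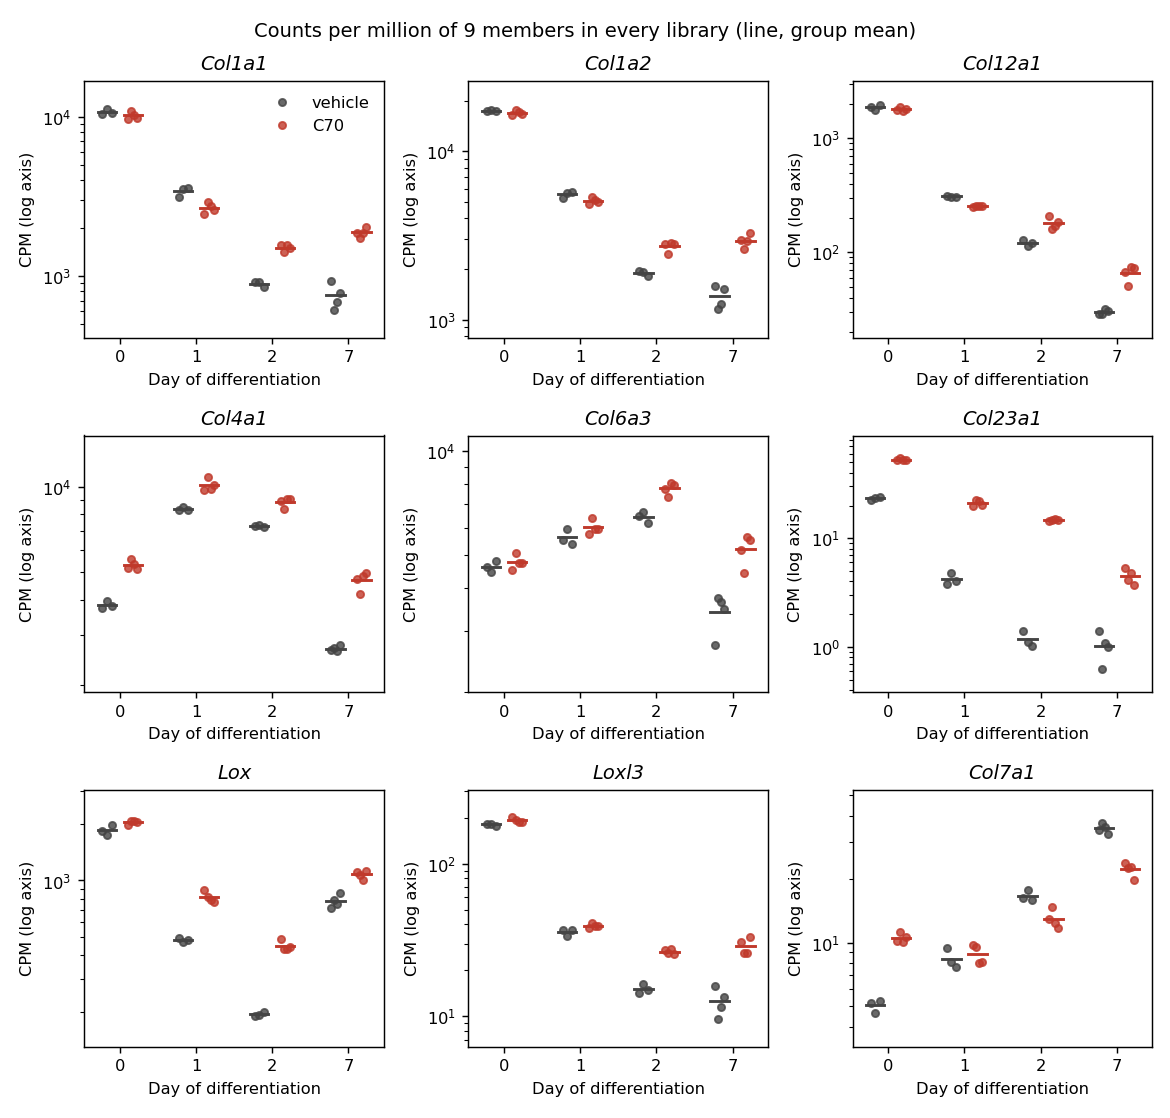
CPM on a log axis of 9 members in each of the 29 libraries by day (days evenly spaced), with vehicle in gray and C70 in red; each point is 1 library and each short line a group mean. At day 7 the C70 points of Col1a1 (1742 to 2021 CPM) lie above those of vehicle (615 to 935 CPM), and those of Col7a1 (19.8 to 24.01 CPM) below (32.8 to 36.8 CPM).

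Of the basement membrane chains Col4a1 and Col4a2 were higher from day 0. Col4a1 was at 3747, 3949 and 3792 CPM in vehicle and 5185, 5553, 5329 and 5139 CPM in C70 samples at day 0 (log2 fold change 0.47 ± 0.05 SE, edgeR adjusted P = 3.05e-08). By day 7 the vehicle samples were at 2653, 2694, 2632 and 2766 CPM and the C70 samples at 4721, 4205, 4847 and 4952 CPM (log2 fold change 0.80 ± 0.05 SE, edgeR adjusted P = 2.41e-14). Col4a1 groups did not overlap on any of the 4 days, although the log2 fold changes of days 1 and 2 (0.28 and 0.28) were under the fold limit. Under quantile normalization the day 1 difference turned to -0.11, and that of day 2 was 0.41 and called. Col4a2 passed on all 4 days, with log2 fold changes of 0.57, 0.44, 0.40 and 0.78 in order of day. Its call of day 1 was lost under quantile normalization (0.22). Col4a5 was higher at day 7 alone (0.44). Since Col4a1 and Col4a2 overlap on opposite strands and the strand setting of the counting was not given in the sources used here, reads over their shared bases may have been counted for either gene.

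Type VI collagen, a filament-forming collagen that adipocytes make in quantity, differed most at day 7. At day 0 the log2 fold changes of Col6a1, Col6a2 and Col6a3 were 0.17, 0.10 and 0.05, all under the limit. Col6a1 and Col6a2 were higher at day 1 (but not called under quantile normalization, at 0.32 and 0.19), Col6a2 at day 2, and all 3 at day 7. Col6a3 was at 4597, 4465 and 4789.6 CPM in vehicle and 4521, 5051, 4746 and 4749 CPM in C70 samples at day 0, where the groups overlapped. By day 7 the vehicle samples were at 2739, 3756, 3637 and 3492 CPM and the C70 samples at 5149, 4436, 5629 and 5539 CPM, with no overlap (log2 fold change 0.61 ± 0.07 SE, edgeR adjusted P = 5.62e-08). Vehicle replicate 1 of day 7 had the lowest Col6a3 of its group, and without it the log2 fold change was 0.52. Col6a2 had the largest difference of these chains, at 741 ± 96.0 CPM (SD, n = 4) in vehicle and 1529 ± 69.1 CPM (SD, n = 4) in C70 samples at day 7 (log2 fold change 1.05 ± 0.06 SE, edgeR adjusted P = 4.93e-15).

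Among the other collagens Col23a1 had the largest response of all members. It was at 22.4, 23.6 and 24.1 CPM in vehicle and 53.0, 54.3, 52.3 and 52.0 CPM in C70 samples at day 0 (log2 fold change 1.18 ± 0.07 SE, edgeR adjusted P = 1.72e-13). By day 2 the vehicle samples were at 1.39, 1.11 and 1.02 CPM and the C70 samples at 14.4, 14.7, 14.97 and 14.6 CPM (log2 fold change 3.63 ± 0.13 SE, edgeR adjusted P = 8.98e-20). Vehicle samples of day 7 were at 1.40, 0.620, 1.08 and 0.987 CPM and C70 samples at 5.36, 4.14, 4.76 and 3.69 CPM (log2 fold change 2.13 ± 0.16 SE, edgeR adjusted P = 3.96e-12). Its level fell after day 0 in both treatments, and the C70 samples of day 2 were below the vehicle samples of day 0. Col28a1, a collagen with von Willebrand factor A domains, was also higher on all 4 days. At day 2 it was at 2.56, 2.33 and 2.71 CPM in vehicle and 6.67, 5.34, 6.17 and 6.86 CPM in C70 samples (log2 fold change 1.31 ± 0.21 SE, edgeR adjusted P = 5.46e-06). The Col28a1 call of day 1 (log2 fold change 0.45) was lost without vehicle replicate 1 or 3 (0.37 and 0.43), without C70 replicate 3 or 4 of that day (0.40 and 0.42) or under quantile normalization (0.38).

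FACIT chains, which decorate fibrils, differed in their timing. Col16a1 was higher on all 4 days. At day 2 it was at 33.2, 34.6 and 32.6 CPM in vehicle and 77.1, 74.5, 85.1 and 79.9 CPM in C70 samples, with no overlap (log2 fold change 1.24 ± 0.07 SE, edgeR adjusted P = 2.89e-15). Col12a1 was higher at days 2 and 7 and had uncalled log2 fold changes of -0.06 at day 0 and -0.29 at day 1. Its day 7 values were 28.6, 28.5, 31.6 and 30.6 CPM in vehicle and 67.0, 50.3, 73.7 and 72.6 CPM in C70 samples (log2 fold change 1.14 ± 0.08 SE, edgeR adjusted P = 3.12e-12). Col20a1 was higher at day 1 alone (0.61), and Col9a3, with group means of 1.496 to 2.28 CPM, was not called.

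The multiplexins of basement membrane zones split likewise. Col15a1 was higher on all 4 days, with 93.1, 108 and 88.9 CPM in vehicle and 170.4, 188, 184 and 175 CPM in C70 samples at day 1 (log2 fold change 0.89 ± 0.08 SE, edgeR adjusted P = 3.18e-10). Col18a1, the precursor of endostatin, was higher at day 2 alone. It was then at 226, 222 and 227 CPM in vehicle and 421, 380.0, 395 and 425 CPM in C70 samples (log2 fold change 0.85 ± 0.05 SE, edgeR adjusted P = 2.95e-14). The Col18a1 groups of day 7 overlapped, with 268, 284, 278 and 307 CPM in vehicle and 274, 260.4, 258 and 299 CPM in C70 samples.

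Col7a1 was higher with C70 at first and lower later. At day 0 it was at 5.20, 4.62 and 5.29 CPM in vehicle and 10.2, 11.2, 10.0 and 10.6 CPM in C70 samples (log2 fold change 1.05 ± 0.10 SE, edgeR adjusted P = 5.41e-09). Its day 7 values were 34.3, 36.8, 35.5 and 32.8 CPM in vehicle and 24.01, 22.6, 22.96 and 19.8 CPM in C70 samples, the reverse order with no overlap (log2 fold change -0.64 ± 0.07 SE, edgeR adjusted P = 1.5e-08). Between these days the groups overlapped at day 1 (log2 fold change 0.07). The lower call of day 2 (log2 fold change -0.36) was lost without vehicle replicate 2 or C70 replicate 4 of day 2 (-0.31 in both cases). Col7a1 rose at every step in vehicle samples. With C70 it was at 9.76, 9.55, 7.97 and 8.08 CPM at day 1, below every C70 sample of day 0. The C70 samples of day 7 were above all C70 samples of the earlier days. Changes between days within C70 samples were not tested. The C70 effect at day 7 less that at day 0 was -1.70 ± 0.13 SE on the log2 scale (edgeR adjusted P = 1.46e-11).

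Among the hydroxylases and the chaperone, calls were few before day 2. P4ha1 and P4ha2, catalytic subunits of prolyl 4-hydroxylase, were called on no day. P4ha1 was at 195, 199.5 and 203 CPM in vehicle and 205, 209, 203 and 198 CPM in C70 samples at day 2. These groups overlapped, and the P4ha1 log2 fold change was between 0.03 and 0.13 over the 4 days. Of the prolyl 3-hydroxylases, P3h3 was higher at days 1, 2 and 7 (0.39, 0.88 and 1.14) and P3h1 at day 7 alone. P3h1 was at 43.3, 39.2, 39.3 and 41.8 CPM in vehicle and 59.1, 52.7, 54.8 and 61.4 CPM in C70 samples at day 7, with no overlap (log2 fold change 0.48 ± 0.05 SE, edgeR adjusted P = 7.21e-09). The lysyl hydroxylases were called at day 2 only, Plod1 and Plod2 as higher and Plod3 as lower (log2 fold changes 0.39, 0.51 and -0.37). Plod1, which hydroxylates helical lysines, was at 272, 260.3 and 256 CPM in vehicle and 353, 330.4, 350.4 and 343 CPM in C70 samples at day 2. At day 1 each lysyl hydroxylase was under the fold limit, although its groups did not overlap. Plod1 was then at 414 to 433 CPM in vehicle and 484 to 509 CPM with C70. Plod2 was at 110 to 129 CPM and 134 to 142 CPM, and Plod3 at 265 to 290 CPM and 223 to 231 CPM. Under quantile normalization Plod3 was called as lower at day 1 (-0.32). Serpinh1 was called at day 7 alone, with 359, 275, 272 and 314 CPM in vehicle and 433, 432, 422 and 457 CPM in C70 samples (log2 fold change 0.52 ± 0.06 SE, edgeR adjusted P = 1.21e-08).

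Of the 5 lysyl oxidases, which cross-link collagen and elastin, 2 were higher at day 0 (Loxl2 and Loxl4), 2 at day 1 (Lox and Loxl4) and 4 at both day 2 and day 7 (Lox, Loxl1, Loxl3 and Loxl4). Over all genes 5.89, 13.6, 16.9 and 14.3% were higher at days 0, 1, 2 and 7. Lox was at 493, 471 and 479.6 CPM in vehicle and 895, 818, 786 and 763 CPM in C70 samples at day 1 (log2 fold change 0.76 ± 0.06 SE, edgeR adjusted P = 1.05e-11). By day 2 the vehicle samples were at 191, 192 and 199 CPM and the C70 samples at 485, 430.4, 429.6 and 443 CPM (log2 fold change 1.21 ± 0.06 SE, edgeR adjusted P = 2.45e-16). Vehicle samples of day 7 were at 710.4, 791, 749 and 855 CPM and C70 samples at 1104, 1070.3, 1011 and 1126 CPM (log2 fold change 0.47 ± 0.05 SE, edgeR adjusted P = 2.33e-08). Lox groups did not overlap on these days, and even at day 0, when Lox was not called, the lowest C70 sample (1985 CPM) was just above the highest vehicle sample (1970.3 CPM). Loxl3, a paralog of Lox, was at 15.8, 9.58, 11.6 and 13.5 CPM in vehicle and 30.6, 25.8, 25.996 and 33.3 CPM in C70 samples at day 7, with no overlap (log2 fold change 1.21 ± 0.09 SE, edgeR adjusted P = 4.65e-12). Loxl4 was higher on all 4 days, and at day 0 was at 42.4, 50.4 and 40.8 CPM in vehicle and 81.6, 79.1, 79.6 and 80.0 CPM in C70 samples (log2 fold change 0.85 ± 0.09 SE, edgeR adjusted P = 8.91e-09). At day 7 its call (log2 fold change 0.53) was lost under quantile normalization (0.32). By day 2 Loxl4 had fallen to 1.74 ± 0.0911 CPM (SD, n = 3) in vehicle and 3.50 ± 0.426 CPM (SD, n = 4) in C70 samples. Loxl1 had log2 fold changes of 0.68 at day 2 and 0.57 at day 7. The Loxl2 call of day 0 (0.69, with group means of 1.28 to 3.67 CPM over all days) was lost without vehicle replicate 2 of that day (0.58) or under quantile normalization (0.55).

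Both procollagen C-proteinase enhancers were higher at day 2. Pcolce, the abundant one, was at 429.9, 413 and 409 CPM in vehicle and 692, 700.2, 707 and 693 CPM in C70 samples at day 2 (log2 fold change 0.74 ± 0.08 SE, edgeR adjusted P = 1.14e-08). Vehicle samples of day 7 were at 266, 162, 183 and 219 CPM and C70 samples at 387, 375, 374 and 412 CPM (log2 fold change 0.90 ± 0.08 SE, edgeR adjusted P = 1.14e-10). No vehicle sample reached the C70 samples on either day, whereas the log2 fold changes of days 0 and 1 were 0.08 and 0.05. Pcolce2 had, after Col23a1, the largest fold change of any member. It was at 1.597, 1.08 and 0.895 CPM in vehicle and 5.34, 4.38, 4.45 and 5.40 CPM in C70 samples at day 1 (log2 fold change 2.03 ± 0.19 SE, edgeR adjusted P = 5.44e-10). By day 2 the vehicle samples were at 0.405, 0.287 and 0.358 CPM and the C70 samples at 1.76, 2.02, 1.08 and 2.00 CPM (log2 fold change 2.29 ± 0.29 SE, edgeR adjusted P = 6.99e-08). The Pcolce2 values of day 2 vehicle samples rest on 7 to 9 counts in each library, so that this fold is imprecise.

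How much of all counts the 24 collagens took was measured in each library. The share was 5.67% ± 0.0505 (SD, n = 3) in vehicle and 5.82% ± 0.202 (SD, n = 4) in C70 samples at day 0. It stood at 4.12% ± 0.0850 (SD, n = 3) in vehicle and 4.43% ± 0.174 (SD, n = 4) in C70 samples at day 1. Day 2 had 2.94% ± 0.0551 (SD, n = 3) in vehicle and 3.85% ± 0.113 (SD, n = 4) in C70 samples. Collagen counts thus fell as a share in both treatments, and less so with C70. Day 7 vehicle samples were at 1.37, 1.39, 1.40 and 1.48%, and the C70 samples of that day at 2.36, 2.10, 2.42 and 2.52%. Every C70 sample was above every vehicle sample at days 1, 2 and 7, and the ratio of C70 to vehicle means was 1.03, 1.07, 1.31 and 1.67 for days 0, 1, 2 and 7. By an exact two-sided permutation test P was 0.286, 0.0571, 0.0571 and 0.0286, and 0.286, 0.0762, 0.0762 and 0.0762 after Benjamini-Hochberg adjustment over these 4 tests, so that none passed 0.05 after adjustment. With 3 samples against 4 this test cannot go below 0.0571, and with 4 against 4 not below 0.0286.

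**Figure D4:**
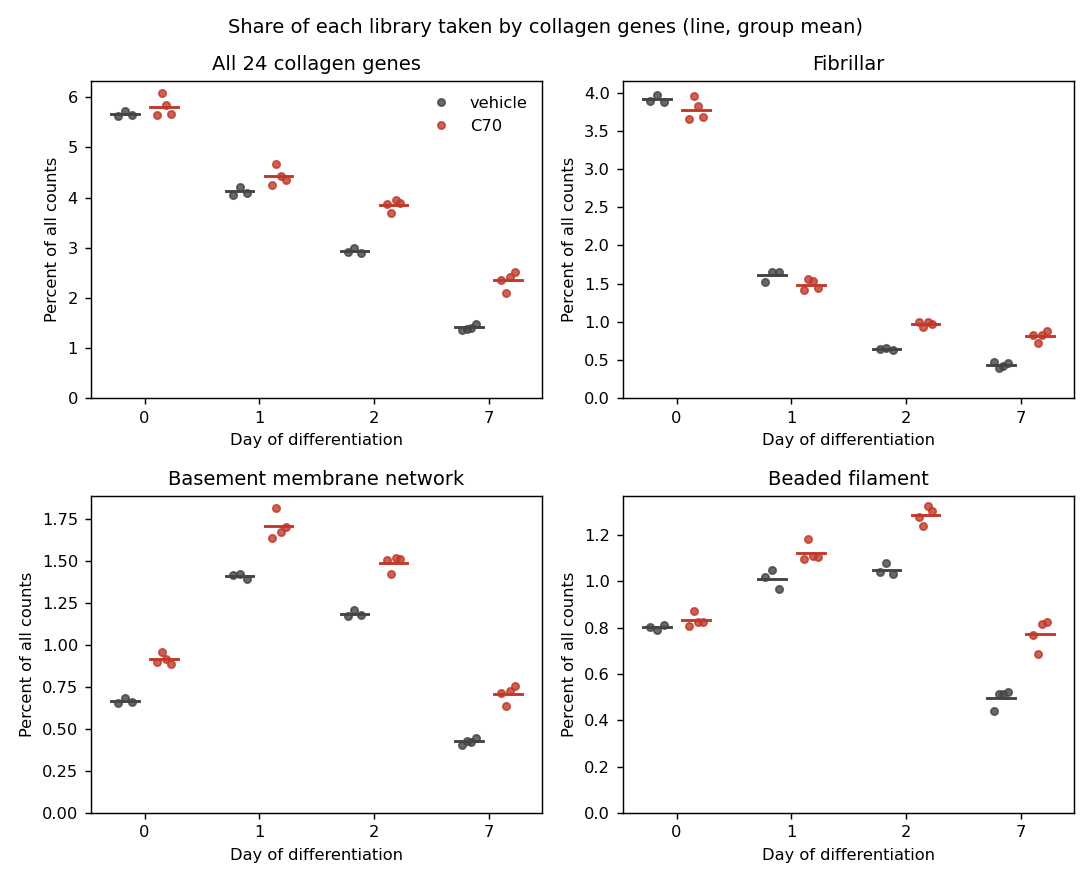
Percent of all counts in each library that came from the 24 collagens together and from the fibrillar, basement membrane network and beaded filament classes, by day (days evenly spaced), vehicle in gray and C70 in red; points are libraries and lines group means. The share of all collagens falls in both treatments, to 1.37 to 1.48% in vehicle and 2.10 to 2.52% in C70 samples at day 7.

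Within the collagen counts the fibrillar part fell from day 0 to day 2 in both treatments, while the basement membrane and beaded filament parts rose. Fibrillar chains made up 69.0% ± 0.344 of vehicle collagen counts at day 0 and 21.9% ± 0.238 at day 2 (SD, n = 3). Basement membrane chains went from 11.8% ± 0.195 to 40.4% ± 0.281, and beaded filament chains from 14.2% ± 0.300 to 35.8% ± 0.179. With C70 the fibrillar part was 64.9% ± 0.288 at day 0 and 25.3% ± 0.259 at day 2 (SD, n = 4), and the basement membrane part 15.7% ± 0.150 and 38.7% ± 0.200. The beaded filament part with C70 was 14.3% ± 0.168 and 33.5% ± 0.321 on these days. The fibrillar part was thus below that of vehicle at day 0 and above it at day 2, with no overlap of samples on either day. At day 1 it was still below, at 33.1 to 34.6% with C70 and 37.6 to 40.2% in vehicle. The basement membrane part was then above that of vehicle (37.8 to 39.1% against 33.7 to 34.9%). By day 7 the fibrillar part overlapped (28.8 to 34.9% in vehicle, 33.9 to 34.8% in C70 samples), as did the basement membrane part (29.7 to 30.7% and 29.9 to 30.2%). The beaded filament part overlapped too (32.2 to 37.1% and 32.6 to 33.8%). From day 2 to day 7 the fibrillar mean rose again, to 31.2% in vehicle and 34.6% with C70. The basement membrane mean fell to 30.2% and 30.1%. These parts were not tested.

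Chains that assemble into 1 protein did not keep a fixed ratio of counts, which are not divided by length here. The ratio of Col1a1 to Col1a2 was 0.61 (range 0.60 to 0.62) in vehicle and 0.53 (range 0.50 to 0.54) in C70 samples at day 1. By day 2 it was 0.47 (range 0.47 to 0.48) in vehicle and 0.55 (range 0.53 to 0.57) in C70 samples, so that the order of the treatments turned. Col5a1 to Col5a2 was 0.97 (range 0.95 to 1.01) in vehicle and 1.05 (range 1.03 to 1.07) in C70 samples at day 2. Its day 7 values were 1.06 (range 1.00 to 1.11) and 1.87 (range 1.78 to 1.94). Col4a1 to Col4a2 had vehicle means between 1.54 at day 7 and 1.77 at day 1 and C70 means between 1.56 and 1.59. Col6a3 to Col6a2 ran from 3.19 to 5.82 in the vehicle samples of day 7, with the lowest value in replicate 1. The ratios are descriptions and were not tested.

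**Figure D5:**
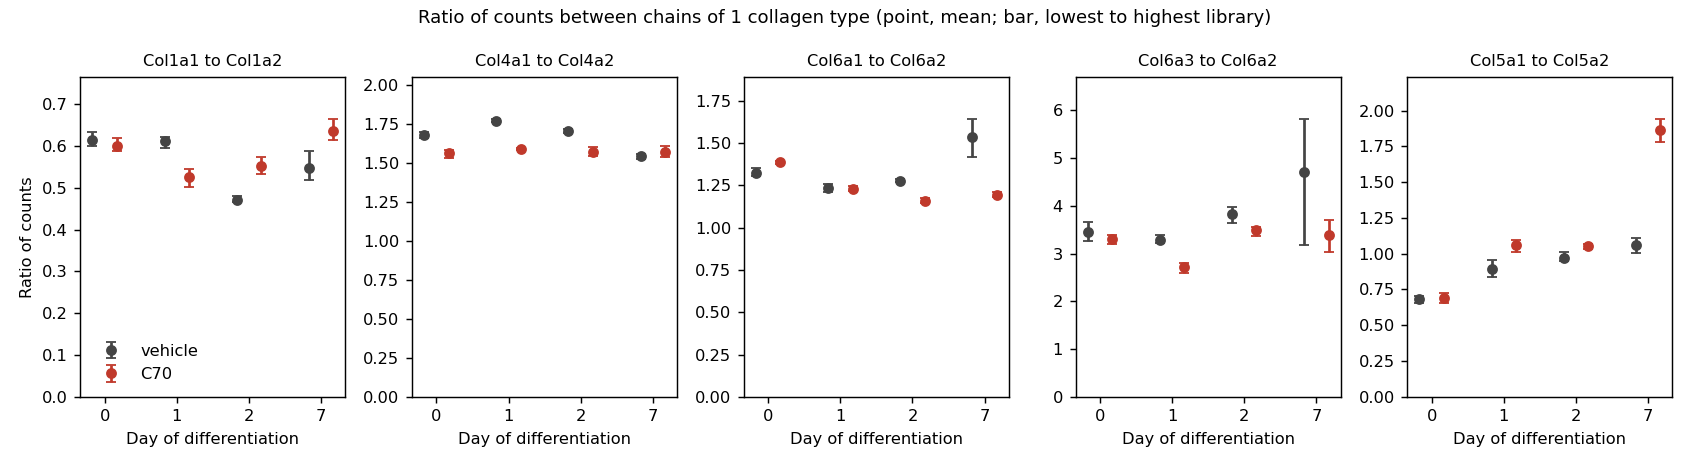
Ratio of counts between chains of the same collagen type by day (days evenly spaced), vehicle in gray and C70 in red; points are group means and bars run from the lowest to the highest library. The ratio of Col5a1 to Col5a2 at day 7 is 1.78 to 1.94 with C70 and 1.00 to 1.11 in vehicle, and that of Col6a3 to Col6a2 spreads from 3.19 to 5.82 among vehicle libraries at day 7.

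Whether the C70 effect differed between days was tested as a difference of log2 fold changes, in comparisons that share the samples of each day. At day 2 the effect was above that of day 0 for 15 members and below it for 2 (14.9% of all genes above, 11.7% below). The 2 below were Col7a1 and Col5a3. The Col5a3 call (-0.33) was lost without any 1 of 9 libraries, under quantile normalization (-0.30) or without genes of low count (-0.31). At day 7 it was above that of day 0 for 21 and below for 2 (14% above, 7.96% below). Set against day 2, the effect at day 7 was above for 13 members and below for 8 (11.9% above, 9.04% below). The 13 included Col1a1 (0.56 ± 0.12 SE, edgeR adjusted P = 0.000494) and Col4a1 (0.52 ± 0.07 SE, edgeR adjusted P = 6.2e-07). Col1a2, Col5a1, Col6a1, Col6a2 and Col11a1 were also among them, as was Col6a3. The Col6a3 call was lost without vehicle replicate 2 or C70 replicate 2 of day 2 (0.31 and 0.31), without vehicle replicate 1 of day 7 (0.24), without C70 replicate 3 or 4 of that day (0.29 and 0.30) or under quantile normalization (0.26). The 8 members below were Col11a2, Col18a1, Col23a1, Col27a1, Lox, Pcolce2, Plod1 and Plod2, the last of which was lost without C70 replicate 3 of day 7 (-0.32). Of these, Pcolce2 had a difference of -2.08 ± 0.38 SE (edgeR adjusted P = 8.84e-05) and Lox one of -0.73 ± 0.08 SE (edgeR adjusted P = 2.58e-08).

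Partners of collagen folding, secretion, trimming and binding outside the set were read from a list of 29 genes, of which 24 were in the table. With C70, 1 was higher and 1 lower at day 0 (5.89% and 3.09% of all genes), and 4 were higher and 1 lower at day 1 (13.6% and 7.8% of all genes). Of the 24, 11 were higher at day 2 and 11 at day 7 (16.9% and 14.3% of all genes). Bmp1, Tll1, Adamts2 and Adamts14, which remove procollagen propeptides, were the 4 trimming proteases in the table, and all 4 were higher at days 2 and 7. Adamts2, an N-proteinase, was at 49.2 ± 6.92 CPM in vehicle and 105 ± 10.98 CPM in C70 samples at day 7 (SD, n = 4 each), with a log2 fold change of 1.09. Tll1, a tolloid C-proteinase, had the largest change of the list, at 1.88 ± 0.385 CPM (SD, n = 3) in vehicle and 5.31 ± 0.356 CPM (SD, n = 4) in C70 samples at day 2 (log2 fold change 1.49 ± 0.16 SE, edgeR adjusted P = 2.25e-09). Creb3l1, a membrane-bound transcription factor that acts on type I collagen genes, was at 20.7 ± 1.296 CPM (SD, n = 3) in vehicle and 39.9 ± 2.30 CPM (SD, n = 4) in C70 samples at day 2 (log2 fold change 0.95 ± 0.08 SE, edgeR adjusted P = 1.13e-11). Fkbp10, a procollagen chaperone, was higher at days 2 and 7 (log2 fold changes 0.37 and 0.86). Its C70 samples were below all vehicle samples at day 0 (173 to 181 CPM against 203 to 216 CPM). The same held at day 1 (131 to 135 CPM against 152 to 157 CPM).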

How the data were processed

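RNA of 29 samples (8 groups) was sequenced from a strand-specific mRNA library kit. Alignment was to GRCm38 with STAR 2.7.2a, and the submitters' processing notes also name edgeR 3.26.8. The authors deposited 1 filtered table of gene counts. The table is called normalized, but its values were whole-number counts whose totals differed between libraries, and they were tested as counts. Every gene in it exceeded 1 CPM in at least 20 libraries. The filter rule, the counting program and its use of strand were not given in the sources used here.

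Counts of all 11959 genes were fitted in 1 edgeR 4.0.16 model of 8 group means (TMM, quasi-likelihood F test, R 4.3.3), with Benjamini-Hochberg adjustment over all genes. SE is the log2 fold change divided by the square root of F. The share of counts was compared by exact permutation over samples (scipy 1.17.1). DESeq2 1.42.0 and limma 3.58.1 (voom, and quantile-normalized log2 CPM) served as alternatives, beside other scalings, filters, thresholds, a block on replicate number and leaving out each library. The edgeR step was tested on simulated data.

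The members and lists were chosen with earlier results of these data known. Per-sample values are given for the most abundant member of each class, for the 4 members with the largest change among DEGs of each day, and for the 3 with the largest change between vehicle days 0 and 7. From a list of collagen partners the 4 with the largest change are named. Levels were compared between genes as CPM per kb of transcript. Of the members, 16 overlap a gene on the other strand and 13 one on the same strand, whose reads may have been split. Replicates of a group differed by more than counting noise (chi-square per degree of freedom 2.65 to 46.7 over 39 pairs).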

Additional observations from a re-analysis of the deposited data

Results flagged for a closer look

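The C70 effect differed between days by an interaction test (edgeR adjusted P under 0.05 and a difference beyond 0.32 on the log2 scale) for 40 results of members whose sample values are given. The comparisons between days share samples, so that these results are not independent of each other.

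The effect at day 2 less that at day 0 was above 0 for Col23a1 (2.45), Pcolce2 (1.94), Lox (1.06), Col18a1 (0.93), Col1a1 (0.83), Col16a1 (0.81), Loxl3 (0.71), Pcolce (0.66), Col12a1 (0.64), Col1a2 (0.57) and Plod1 (0.32). It was below 0 for Col7a1 (-1.42). The Plod1 result fell under the limit without any 1 of 7 libraries, at 0.30 and 0.29 without vehicle replicates 1 and 3 of day 0, 0.31 without C70 replicate 1 of day 0, 0.32 and 0.31 without vehicle replicates 2 and 3 of day 2, and 0.31 and 0.32 without C70 replicates 1 and 3 of day 2. It was also under it by DESeq2 (0.31).

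Less the effect at day 2, that at day 7 was above 0 for Col11a1 (1.12), Col1a2 (0.57), Col12a1 (0.57), Col1a1 (0.56), Col4a1 (0.52), Loxl3 (0.40), P3h1 (0.34) and Col6a3 (0.34). It was below 0 for Pcolce2 (-2.08), Col23a1 (-1.4994), Col18a1 (-0.91), Lox (-0.73) and Plod1 (-0.41). Single libraries decided the smaller of these. Loxl3 was not called without vehicle replicate 2 of day 2 (0.35), vehicle replicate 2 of day 7 (0.30) or C70 replicate 4 of day 7 (0.33). P3h1 was under the limit without vehicle replicate 1 of day 2 (0.29), C70 replicate 4 of day 2 (0.32), vehicle replicate 2 or 3 of day 7 (0.32 each) or C70 replicate 1 or 4 of day 7 (0.32 and 0.30). Col6a3 was under it without vehicle replicate 2 or C70 replicate 2 of day 2 (0.31 each), vehicle replicate 1 of day 7 (0.24) or C70 replicate 3 or 4 of day 7 (0.29 and 0.30), or under quantile normalization (0.26).

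Less the effect at day 0, that at day 7 was above 0 for Col1a1 (1.39), Col12a1 (1.21), Col11a1 (1.21), Col1a2 (1.14), Loxl3 (1.12), Col23a1 (0.95), Pcolce (0.82), Col16a1 (0.61), Col6a3 (0.56), P3h1 (0.46), Serpinh1 (0.44), Col15a1 (0.39), Col4a1 (0.33) and Lox (0.33). It was below 0 for Col7a1 (-1.70). Col15a1 was not called without vehicle replicate 2 of day 0 (0.29). Col4a1 was under the limit without vehicle replicate 2 (0.31) or C70 replicate 1 or 4 (0.32 each) of day 0, or C70 replicate 3 or 4 of day 7 (0.32 and 0.30), and under quantile normalization (0.15). Lox was under it without vehicle replicate 3 (0.28) or C70 replicate 1 (0.31) of day 0, vehicle replicate 1 or 3 of day 7 (0.29 and 0.31) or C70 replicate 1 or 4 of day 7 (0.32 and 0.31), and under quantile normalization (0.21).

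In groups of 4 samples, 3 samples stood far from the other 3 of their group (by Dixon's test of the gap over the group's range, at its 95% limit). They were Col1a2 in C70 replicate 2 of day 2 (2464 CPM), Plod1 in C70 replicate 2 of day 7 (506 CPM) and Lox in C70 replicate 1 of day 0 (1985 CPM). Of 110 groups looked at, chance alone would give about 5.5 such samples at 1 in 20.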

How the results depend on the processing

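Of 208 results on single members with sample values, 155 were called. Over 37 other settings 14 lost their call in 1 setting or more, 10 gained one, and 13 changed sign, none of the latter a called result. Counts of called members ranged over the other scalings, tools, filters and left-out libraries from 8 to 11 at day 0, 13 to 17 at day 1 (the 13 under quantile normalization shared 11 with the 16 reported), 21 to 24 at day 2 and 25 to 27 at day 7 for C70 against vehicle. Between vehicle days they ranged from 33 to 37 for day 7 versus day 0. The fold limit mattered more: at a fold change over 1.5 there were 5 members at day 0, 6 at day 1, 15 at day 2, 9 for the effect at day 7 less day 2 and 14 for day 7 less day 0, and by adjusted P alone 25 at day 1. That follows from the limit itself. Shares over all genes at these other limits are not given here, so these counts only describe the members. Under quantile normalization the sign turned for Col6a3 (-0.079), Col1a1 (0.063), Serpinh1 (-0.032) and P3h1 (-0.012) at day 0, for Col7a1 (-0.014), Col4a1 (-0.11) and Col6a3 (-0.078) at day 1, for Pcolce2 (-0.074) and Plod1 (0.013) at day 7, for Col28a1 from vehicle day 0 to day 1 (0.000834) and for Col23a1 from vehicle day 2 to day 7 (0.22). Plod1 at day 7 was 0.0016 without genes of low count. The cause was not tested. Leaving out 1 library turned P3h1 at day 0 (range -0.011 to 0.040), P4ha1 at day 1 (-0.024 to 0.12) and Col28a1 from vehicle day 2 to day 7 (-0.45 to 0.11). The collagen share difference at day 7 was 0.883 to 1.02 percentage points with 1 library left out, each with an exact permutation P of 0.0571, the smallest that 3 against 4 samples can give. Same-numbered vehicle and C70 samples did not deviate together (correlations of -0.205 to 0.214 over 13 pairs, 2 over 0.1), so that the numbers were not taken as pairs. With a replicate block 10, 17, 23 and 26 members were called at days 0, 1, 2 and 7. Counts under 10 per library (Pcolce2 in day 2 vehicle samples) limit the precision of the lowest members, and the filtered table limits which members could be seen.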

Other observations

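The collagen partners outside the set ran, in vehicle samples, much like the set. Of the 24 in the table, 16 fell and 2 rose from day 0 to day 7 (36.7% of all genes fell and 36.7% rose). The median of their log2 fold changes was -0.77. The 4 trimming proteases were among those that fell. Per transcript length, Col1a2 at 552 CPM per kb came after Col4a1 (708) and Col6a3 (576) in C70 samples of day 7. In vehicle samples of that day it was at 258 CPM per kb, below Col4a1 (406), Col6a3 (378), Col6a1 (276) and Col4a2 (269.8). These are group means and the order was not tested.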
